A study of Mus musculus with 12 samples.

Results

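The net change of the maxillary prominence over its whole sampled course was taken from 6 of the 12 libraries of the series, the 3 of embryonic day (E) 10.5 and the 3 of E14.5, chosen by their labels alone. All libraries came from wild type C57BL/6 mouse embryos with no mutation or treatment named, so that the groups differ by age. Maxillary prominences were dissected whole, and polyadenylated RNA was sequenced and counted per gene. Tissue came from 7 littermates, and whether that number is per library or per age is not given. The series' design text calls the 3 libraries of an age biological replicates, and separate litters are not named. All p-values then rest on the scatter among these libraries. The label of E14.5 replicate 1 names a pair of parts that were used as 1 library, and E14.5 has a protocol text of its own, separate from that of the earlier ages. Whether preparation differed between them is not given, and it cannot be told apart from age. In tissue of mixed cells such as this, fewer cells of a type and less RNA per cell cannot be told apart either, and that holds for every level below.

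The maxillary prominence is a paired swelling of the embryonic face. Mesenchyme that descends from the cranial neural crest fills it, a thin epithelium covers it, and mesoderm supplies the lining of its vessels and the muscle precursors. At the earlier age the mesenchyme is a dividing, patterned but undifferentiated tissue. Over the following days it forms the bones of the upper jaw and palate, connective tissue, and the mesenchyme of teeth and of whisker follicles, while the epithelium stratifies. Known classes of gene accompany these steps: transcription factors that specify position, RNA-binding proteins of the Lin28 group that hold an early growth state, cell cycle genes, and the structural genes of each differentiated tissue.

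Libraries held 28294837 to 33941430 counts in genes. Levels are in CPM, the count relative to a library size scaled by the trimmed mean of M-values, and are given as mean ± SD over 3 libraries where a mean is given. The first principal component of the 6 libraries held 88.3% of their variance and separated the ages, and the correlation of log2 levels was 0.982 to 0.991 within an age and 0.880 to 0.894 between them. Alignments outside annotated genes made up 2.67%, 1.92% and 4.88% of E10.5 replicates 1, 2 and 3 and 5.78% to 6.21% at E14.5, so that this share moved with age. Xist, the transcript of the silenced X chromosome, was at 0.0739 CPM in E10.5 replicate 2 and at 359.8 or more in the other 5 libraries, and none of the 4 Y-linked genes had a count in E14.5 replicate 1. The mix of sexes thus differed between libraries, and neither Xist nor a Y-linked gene was called between the ages.

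Over the whole course, bone, skeletal muscle, connective tissue matrix and differentiated keratinocyte genes rose, with median log2 fold changes of 3.98, 6.13, 4.09 and 7.37. Genes of the Lin28 programme and the embryonic globins fell, with medians of -2.73 and -4.93. Of 18365 genes tested, 6721 (36.6%) were higher at E14.5 and 6211 (33.8%) lower, 70.4% in all, by edgeR's quasi-likelihood test with Benjamini-Hochberg adjusted p under 0.05. The counts given below for gene lists stand against these shares, and a count near them says little about its list. The directions were unequal in size. Genes that rose at least 16-fold numbered 812, and those that fell as far 75, while below 1.5-fold there were 1145 rises and 1881 falls. Across the genes tested the median change was 0.06 on the log2 scale. At 39.3% of genes all 3 E14.5 libraries lay above all 3 E10.5 libraries, and at 36.2% below them. The split of the calls depends on the scaling: 52.0% of calls were higher with the trimmed mean, 59.9% (7725 higher, 5181 lower) with upper quartile scaling and 68.2% (8828 higher, 4114 lower) with library totals, which shift the changes by a median of 0.15 and 0.32 on the log2 scale. With the share of reads outside annotated genes as a covariate, 3576 genes were higher and 3908 lower. Tested against a change of 2-fold rather than 0, 3007 were higher and 1223 lower.

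**Figure D1:**
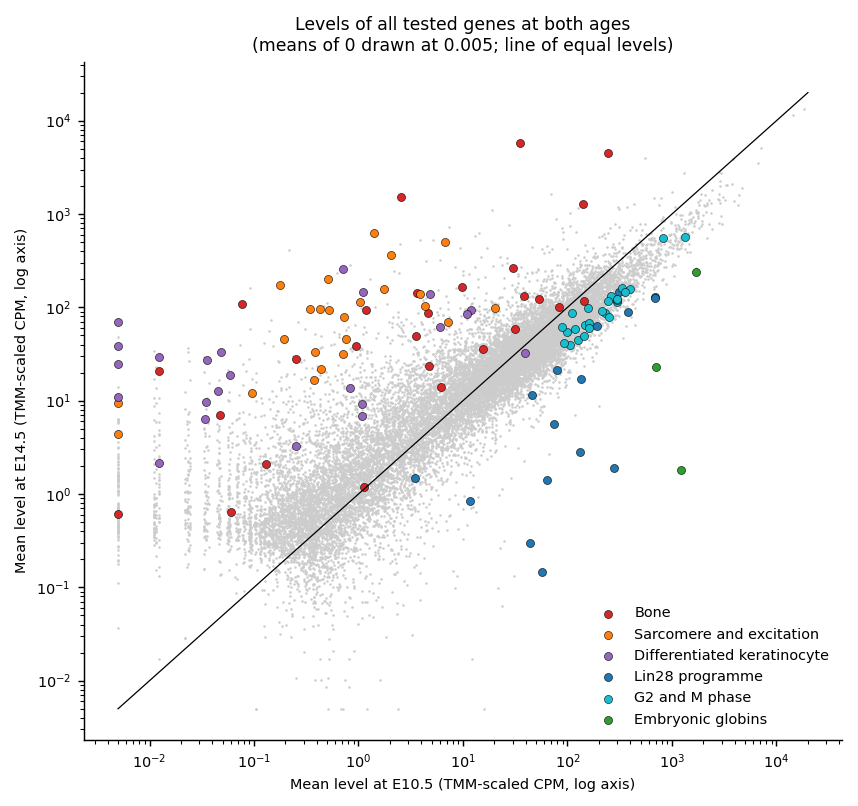
Mean level of each of the 18365 tested genes at E10.5 (horizontal, CPM, log axis) and E14.5 (vertical, CPM, log axis), grey points, with members of 6 gene lists in colour and the line of equal levels. Bone, sarcomere and differentiated keratinocyte genes lie above the line, except Atf4 and Cldn4, up to Col1a1 at 34.9 and 5698 CPM, and genes of the Lin28 programme, the G2 and M phases and the embryonic globins lie below it, down to Lin28a at 56.6 and 0.146 CPM.

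Among the 10 genes with the largest gain in CPM, a measure that is not corrected for gene length, were the collagen genes Col1a1, Col1a2, Col3a1, Col5a2 and Col6a3, the matrix genes Postn, Sparc and Ibsp, and the imprinted genes H19 and Plagl1. Among the 10 with the largest loss were the glycolytic enzymes Gapdh and Eno1, the chaperones Hspa8 and Hsp90aa1, the prolyl isomerase Ppia and the growth-associated nuclear proteins Npm1 and Ptma. Gapdh measured 3836, 4426 and 3509 CPM at E10.5 and 1402, 1492 and 1278 CPM at E14.5 (log2 fold change -1.5, SE 0.15, adjusted p = 9.40e-07). This gene, often taken as a reference of constant level, was lower in each E14.5 library than in any E10.5 library. Among the 12 largest fold rises was Agtr2, the type 2 angiotensin receptor, at 0.244, 0.148 and 0.263 CPM and then 445, 345 and 441 CPM (log2 fold change 10.84, SE 0.35, adjusted p = 8.38e-11). The transporter gene Abca8a had 1 count over the E10.5 libraries and 30.7 to 39.2 CPM at E14.5, a ratio of 2965 with a 95% exact interval of 532 to 117130.

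Bone genes rose in nearly every case. Of 27 tested genes of osteoblasts and bone matrix, 25 were higher and 1 lower, with a median log2 fold change of 3.98. Runx2, the factor that commits mesenchyme to the osteoblast lineage, stood at 7.47, 3.96 and 2.43 CPM at E10.5 and at 86.7, 89.2 and 88.4 CPM at E14.5 (log2 fold change 4.26, SE 0.27, adjusted p = 2.06e-08). Its E10.5 libraries were widely spread, with replicate 1 the highest, and its E14.5 libraries hardly differed, with no overlap. Sp7, which acts after Runx2, measured 1.4, 1.29 and 0.855 CPM and then 94.4, 101 and 82.4 CPM (6.29, SE 0.25, adjusted p = 3.79e-10). Of the 8 regulators, 7 were higher, with smaller rises for the homeobox genes Dlx5 (1.22) and Dlx6 (1.19) and the parathyroid hormone receptor Pth1r (1.22). Atf4, a stress-response factor that osteoblasts share with many cells, was the 1 lower gene, at 145 ± 9.47 and 118 ± 6.81 CPM, and that call was lost with library totals (adjusted p = 0.780), upper quartile scaling (adjusted p = 0.0825) and the outside-gene share as a covariate (adjusted p = 0.139).

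Genes of the mineralising matrix rose further than the regulators. Ibsp, an acidic glycoprotein of mineralising bone, had 2.79, 2.51 and 2.27 CPM at E10.5 and 1604, 1706 and 1209 CPM at E14.5 (log2 fold change 9.22, SE 0.28, adjusted p = 4.95e-11). The ages did not overlap, and E14.5 replicate 3 was the lowest of its age. Col1a1, a chain of type I collagen, went from 42.4, 28.8 and 33.6 CPM to 6771, 4956 and 5368 CPM (7.35, SE 0.26, adjusted p = 1.78e-10). Its partner chain Col1a2 started higher, at 243 ± 24.3 CPM, and reached 4555 ± 680.3 CPM, so the fold was smaller (4.23). Alpl, the phosphatase that frees phosphate for mineral, rose from 9.75 ± 2.39 to 165 ± 15.4 CPM. Panx3, a channel of osteoblasts and hypertrophic chondrocytes, rose from 0.0774 ± 0.105 to 109 ± 20.5 CPM, and Smpd3, a sphingomyelinase needed for mineralisation, from 3.63 ± 1.29 to 144 ± 16.8 CPM.

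Genes of the osteocyte, the cell embedded in finished bone, were low or mixed. Dmp1 had 1 count over the E10.5 libraries and 27.5, 12.3 and 22.6 CPM at E14.5 (ratio 1811, 95% exact interval 325 to 71563), and Phex rose from 0.940 ± 0.344 to 38.9 ± 3.52 CPM. Sost, which mature osteocytes secrete to restrain Wnt signalling, was at 0.768, 1.63 and 1.02 CPM and then 1.19, 1.22 and 1.13 CPM, with overlapping libraries and no call (adjusted p = 0.903). Osteocalcin genes were too low to test, with 7 counts at E10.5 and 37 at E14.5 for Bglap and 3 and 21 for Bglap2. The phosphatase gene Phospho1 shares 89.6% of its exon length with Abi3 and another gene. It is in the counts of the bone list but is not read on its own.

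The 250 bases before the start site of Ibsp are shown because this gene is among the 10 with the largest gain in CPM (RefSeq, GRCm38.p6, chr5:104299037-104299286, plus strand). Capitals mark TATAAA and CCAAT, both here on the opposite strand and so read as TTTATA and ATTGG, 28 and 54 bases before the start site.
Ibsp: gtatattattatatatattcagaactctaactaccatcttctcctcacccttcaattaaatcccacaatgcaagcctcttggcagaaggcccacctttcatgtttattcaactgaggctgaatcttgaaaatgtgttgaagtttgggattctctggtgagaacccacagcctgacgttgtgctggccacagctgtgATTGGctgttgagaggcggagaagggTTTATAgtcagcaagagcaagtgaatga
Of the 19 bone genes with a promoter in the RefSeq table, 5 (26.3%) held TATAAA on either strand between 250 bases before and 50 after the start, against 7.76% of the 12709 promoters of tested genes. TGTGGT, the core of the sequence that Runx factors bind, was in 7 of the 19 (36.8%) and in 12.5% of all. These counts describe letters in a window and not binding.

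Osteoclast genes, of the cells that resorb bone, were higher in 12 of 12 cases with a median of 2.82. Mmp9, a collagenase of these cells, measured 0.314, 0.0739 and 0.526 CPM at E10.5 and 59.2, 60.0 and 54.7 CPM at E14.5 (log2 fold change 7.52, SE 0.37, adjusted p = 1.84e-09). The protease gene Ctsk rose from 5.82 ± 1.63 to 82.2 ± 6.41 CPM. Tnfsf11, the RANKL signal by which bone cells call up osteoclasts, rose from 0.0788 ± 0.0742 to 3.82 ± 0.652 CPM, its receptor Tnfrsf11a from 0.923 ± 0.198 to 4.81 ± 0.504 CPM, and its decoy receptor Tnfrsf11b from 1.73 ± 0.179 to 5.89 ± 0.669 CPM. The proton pump subunit gene Atp6v0d2 had 2 counts over E10.5 and 5.08 to 6.21 CPM at E14.5 (ratio 239, interval 65.7 to 1974). General leukocyte genes rose over the same course, by a median of 1.38, and their part in this count was not tested.

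Cartilage genes did not move as 1 group. Among 17 matrix genes 13 rose and none fell, while 2 of 6 regulators rose and 3 fell. Sox9, the master regulator of cartilage that neural crest cells also express, measured 93.5, 81.5 and 105 CPM at E10.5 and 27.7, 27.2 and 29.4 CPM at E14.5 (log2 fold change -1.73, SE 0.15, adjusted p = 2.97e-07). Every E14.5 library was below every E10.5 library. Of its partners, Sox5 fell from 53.8 ± 3.44 to 11.9 ± 0.446 CPM and Sox6 rose from 22.5 ± 3.56 to 59.0 ± 4.03 CPM. Aggrecan (Acan), the large proteoglycan of cartilage, went from 0.140, 0.0370 and 0.263 CPM to 83.1, 99.8 and 36.8 CPM (8.88, SE 0.57, adjusted p = 2.00e-08). Matn1, a matrilin, had 2 counts over E10.5 and 26.7 ± 1.86 CPM at E14.5 (ratio 1146, interval 317 to 9465), and Col11a2 rose from 2.44 ± 1.01 to 234 ± 55.7 CPM.

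Not every cartilage matrix gene followed. Col2a1, the main cartilage collagen, stood at 423, 376 and 555 CPM and then at 586, 588 and 258 CPM, with overlapping libraries (adjusted p = 0.808), and Hapln1, the link protein, at 85.7 ± 9.34 and 72.7 ± 17 CPM (adjusted p = 0.361). E14.5 replicate 3 was the lowest of its age for Acan, Col2a1, Col9a1, Col9a2, Col9a3, Matn3, Comp and Snorc. The hypertrophic marker Col10a1 had 6 counts at E10.5 and 21 at E14.5 and was not tested.

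Extracellular matrix genes of connective tissue rose without exception, 34 of 34, with a median log2 fold change of 4.09. Decorin (Dcn), a small proteoglycan that binds collagen fibrils, measured 1.99, 2.85 and 2.73 CPM at E10.5 and 532, 439.7 and 471 CPM at E14.5 (7.57, SE 0.39, adjusted p = 2.83e-09). Its relative asporin (Aspn) went from 0.0911 ± 0.0665 to 161 ± 22.3 CPM (10.70) and osteoglycin (Ogn) from 0.823 ± 0.371 to 282 ± 25.7 CPM (8.39), while lumican (Lum) started from 16.9 ± 0.979 CPM and reached 438 ± 27.6 CPM (4.70). Elastin (Eln), of elastic fibres, rose from 5.18 ± 1.62 to 523 ± 53.6 CPM (6.65). Of the type VI collagen chains, which surround cells with fine filaments, Col6a1, Col6a2 and Col6a3 rose by 5.46, 5.49 and 5.89.

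Some matrix genes already abundant at E10.5 changed less. Fbln1 stood at 139 ± 7.83 and 192 ± 13.2 CPM (0.47), Mfap2 at 111 ± 10.1 and 201 ± 3.63 CPM (0.86) and versican (Vcan), the hydrated proteoglycan of young mesenchyme, at 789 ± 106 and 1472 ± 47.2 CPM (0.90). The rise of Fbln1 no longer passed with the outside-gene share as a covariate (adjusted p = 0.121). Fibrillins, the microfibril proteins, changed their proportion: the count of Fbn1 per count of Fbn2, the form that prevails in the embryo, was 0.222, 0.232 and 0.246 at E10.5 and 0.502, 0.486 and 0.524 at E14.5, with both genes higher at E14.5 (2.56 and 1.45).

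The enzymes that process and export collagen rose with their substrate, 20 of 20, by a median of 1.73. Lox, which cross-links collagen and elastin, measured 8.97, 7.17 and 12.2 CPM and then 492, 376 and 419.6 CPM (5.50, SE 0.27, adjusted p = 1.84e-09). Adamts2, which trims the procollagen end, rose from 2.16 ± 0.397 to 79.1 ± 11.1 CPM, and Creb3l1, a transcription factor of secretory osteoblasts, from 2.58 ± 0.379 to 70.1 ± 4.75 CPM. Among the prolyl hydroxylase subunits, P4ha3 rose by 4.91, P4ha2 by 2.03 and P4ha1 by 0.88. Serpinh1, the collagen chaperone HSP47, was already at 1009.9 ± 53.6 CPM and rose to 1715 ± 129 CPM (0.76). Pcolce, which aids the processing of procollagen, rose by 0.63 (adjusted p = 0.000480), a call lost with the covariate (adjusted p = 0.141).

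Skeletal muscle genes rose in 34 of 37 cases, with a median of 6.13. All 24 tested genes of the sarcomere and of its excitation were higher. Acta1, the actin of skeletal muscle fibres, had 0.244, 0.185 and 0.0987 CPM at E10.5 and 190.2, 176 and 159 CPM at E14.5 (9.94, SE 0.46, adjusted p = 1.29e-09). Actc1, the cardiac form that embryonic muscle expresses first, was at 6.69 ± 2.25 and 505 ± 58.1 CPM (6.24). Counts of Acta1 per count of Actc1 were 0.0588, 0.0248 and 0.0117 at E10.5 and 0.347, 0.333 and 0.363 at E14.5. Among myosin heavy chains the embryonic form Myh3 rose from 1.4 ± 0.502 to 631 ± 90.2 CPM (8.83), the perinatal form Myh8 from 0.511 ± 0.140 to 199 ± 31.3 CPM (8.59) and the slow form Myh7 from 0.715 ± 0.150 to 31.3 ± 6.54 CPM (5.44). Ckm, the muscle creatine kinase, had no count at E10.5 and 4.35 ± 0.895 CPM at E14.5, a rise of at least 123-fold when 3 counts over the 3 libraries are taken as the floor.

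Myogenic regulators separated into those already present and those near 0 at the earlier age. Myod1, which commits cells to muscle, measured 0.454, 0.518 and 0.362 CPM and then 38.9, 38.7 and 34.6 CPM (6.39, SE 0.19, adjusted p = 4.95e-11), and Myog, which drives their fusion and differentiation, rose by 6.13. The fusion gene Mymk had 1 count over E10.5 and 23.1 ± 2.40 CPM at E14.5 (ratio 1971, interval 353 to 77888). Pax7, of muscle stem cells and also of neural crest, rose from 2.22 ± 1.88 to 12.4 ± 1.94 CPM (2.50), whereas Pax3 was not called (26.1 ± 9.50 and 26.8 ± 5.70 CPM, adjusted p = 0.929). Tbx1 and Msc, regulators of the head muscle lineage, rose by 1.35 and 2.06, and the rise of Tbx1 did not pass with E10.5 represented by replicate 3 alone (adjusted p = 0.0568) or with the outside-gene share as a covariate (adjusted p = 0.502). The genes of the synapse on muscle, Chrna1 and the fetal subunit Chrng, rose by 6.41 and 5.64.

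The 250 bases before the start site of Acta1 are shown as the promoter of a sarcomere gene that went from near 0 to a high level (RefSeq, GRCm38.p6, chr8:123894776-123895025, minus strand). Capitals mark a CArG box, the sequence that serum response factor binds, and CAGCTG, a form of the E-box that myogenic factors bind, 73 and 221 bases before the start site.
Acta1: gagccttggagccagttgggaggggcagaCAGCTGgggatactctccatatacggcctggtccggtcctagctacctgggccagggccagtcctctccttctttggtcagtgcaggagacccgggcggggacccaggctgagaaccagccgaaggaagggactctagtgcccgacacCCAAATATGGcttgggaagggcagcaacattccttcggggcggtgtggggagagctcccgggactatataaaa
Of 21 sarcomere and excitation genes with a promoter in the table, 9 (42.9%) held CAGCTG, which reads the same on both strands, against 15.7% of all promoters. A CArG box was in 2 of the 21 (9.52%) and in 1.33% of all.

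**Figure D2:**
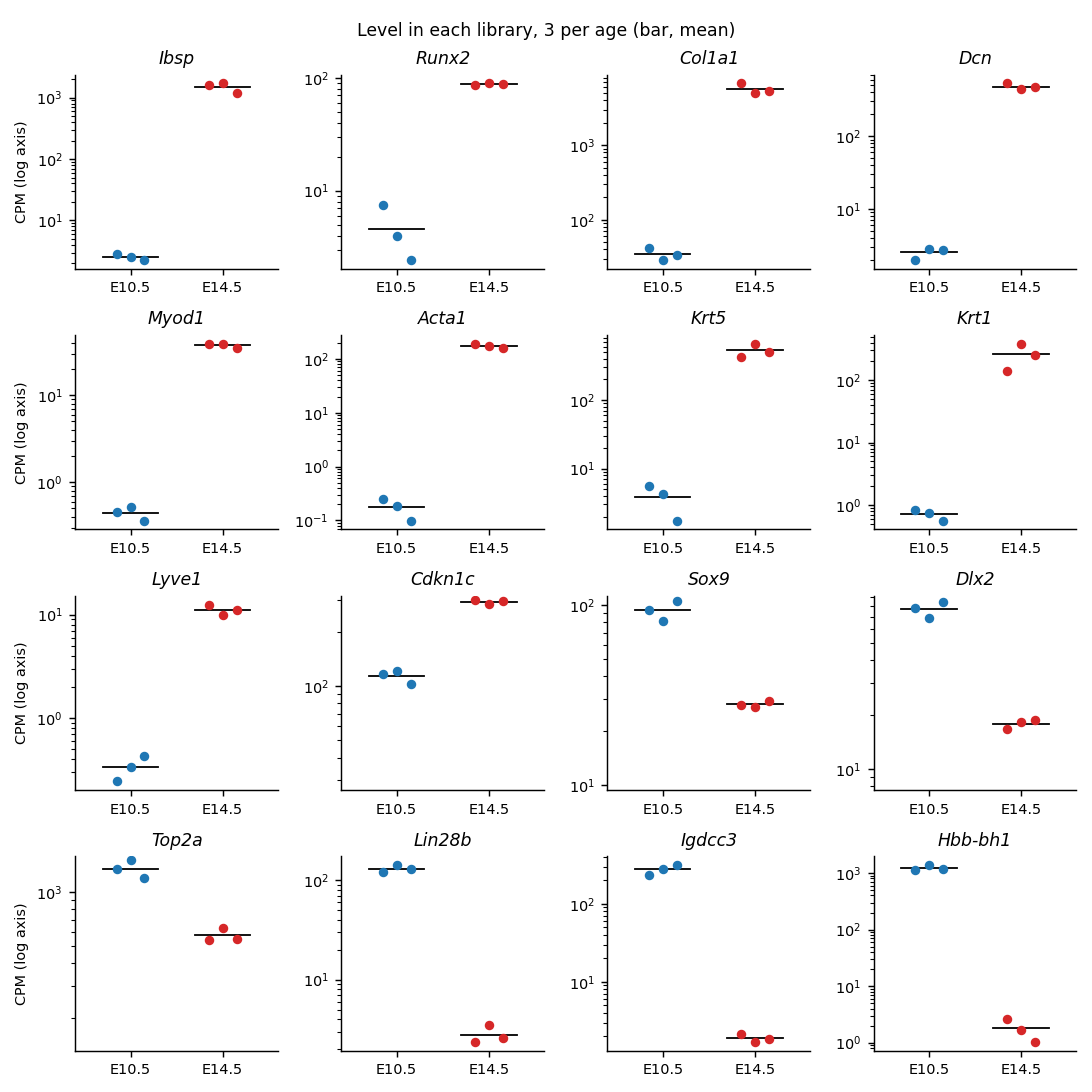
Level of 16 genes in each of the 3 libraries of E10.5 (blue) and E14.5 (red), in CPM on log axes, with a bar at the mean. In each of the 16 genes the libraries of the ages do not overlap. Examples, with E10.5 first, are 103 to 122 against 285 to 300.2 CPM for Cdkn1c and 1135 to 1365 against 1.03 to 2.63 CPM for Hbb-bh1.

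The surface epithelium changed its keratins. Krt5, which with Krt14 forms the filaments of the basal layer of stratified epithelium, measured 5.66, 4.33 and 1.74 CPM at E10.5 and 425, 657 and 508 CPM at E14.5 (7.09, SE 0.41, adjusted p = 7.59e-09). Krt8, a keratin of simple epithelium, went the other way, from 107, 99.3 and 96.5 CPM to 19.9, 16.6 and 24.7 CPM (-2.30, SE 0.22, adjusted p = 6.13e-07). For neither gene did the ages overlap. Counts of Krt5 per count of Krt8 were therefore 0.0529, 0.0436 and 0.0181 at E10.5 and 21.3, 39.6 and 20.6 at E14.5, and those of Krt14 per count of Krt18 were 0.337, 0.236 and 0.198 and then 16.8, 27.6 and 14.1.

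Of 22 basal epithelial genes 16 were higher and 3 lower. Among those that rose were genes whose proteins anchor the basal layer, Col17a1 from 4.14 ± 1.69 to 119.9 ± 8.59 CPM (4.85), Itgb4 by 3.48 and the laminin chain Lama3 by 6.08. Several genes that mark epithelium in general were not called. Trp63, the regulator of stratified epithelium, stood at 106, 83.6 and 95.5 CPM and then at 81.2, 102 and 87.6 CPM (adjusted p = 0.553), Itga6 at 119 ± 12.3 and 137 ± 6.32 CPM (adjusted p = 0.0677) and Grhl2 at 26.7 ± 4.43 and 21.6 ± 2.91 CPM (adjusted p = 0.164).

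Differentiated keratinocyte genes were higher in 22 of 23 cases, with a median of 7.37 (7.54 with genes of 0 to 3 counts at E10.5 set to their bound or ratio). Krt1, the first keratin of the suprabasal layers, stood at 0.838, 0.739 and 0.559 CPM and then at 143, 381 and 253 CPM (8.50, SE 0.39, adjusted p = 1.03e-09). E14.5 replicate 1 was the lowest of its age for it, for its partner Krt10 (87.4 against 186 and 141 CPM) and for the other suprabasal genes named here. The desmosomal cadherin Dsg1a had no count at E10.5 and 69.6 ± 28.7 CPM at E14.5, at least 1979-fold higher, though its near-identical neighbour Dsg1b makes the assignment of reads between them uncertain. The epidermal genes Dmkn, Krtdap and S100a14 also had no count at E10.5 and rose at least 1385-fold, 712-fold and 1112-fold. Krt4, of the lining of the mouth, had 1 count at E10.5 and 29.5 ± 7.81 CPM at E14.5 (ratio 2581, interval 463 to 101960). Genes of the final cornified layer were low at E14.5, as for loricrin (Lor, 3.28 ± 1.41 CPM) and the transglutaminase Tgm3 (6.44 ± 1.23 CPM). The single gene not called was Cldn4, a tight junction claudin, at 39.3 ± 5.17 and 32.2 ± 4.72 CPM.

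Of 20 genes of hair follicle and tooth 13 rose and 5 fell, and their summed level overlapped between the ages, at 278, 189 and 247 CPM and then 214, 287 and 269 CPM. The inner root sheath keratins Krt25, Krt71 and Krt73 had no count at E10.5 and rose at least 316-fold, 424-fold and 177-fold, and they spread widely over the E14.5 libraries, with Krt71 at 3.83, 11.9 and 26.3 CPM. Replicate 3, the highest for these, was not the highest for the suprabasal keratin Krt1. The enamel protein gene Ambn had 1 count at E10.5 and 7.35, 8.67 and 6.24 CPM at E14.5 (ratio 631, interval 113 to 24969), the enamelin gene Enam 0 counts and 41, and the amelogenin gene Amelx had none at either age. Receptor and ligand of the ectodysplasin pathway, which spaces follicles and teeth, rose, Edar from 1.15 ± 0.237 to 4.90 ± 1.16 CPM and Eda from 7.02 ± 0.0990 to 22.0 ± 1.55 CPM. Fgf4, a signal of the enamel knot that folds the tooth epithelium, had no count at E10.5 and 1.23, 2.21 and 0.877 CPM at E14.5 (at least 40-fold). Lef1 fell by 1.02 and Msx2, a homeobox gene of tooth, suture and early face, by 2.96, from 54.4 ± 18.8 to 6.97 ± 1.94 CPM.

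Vessel genes had a smaller median rise than matrix genes. Of 22 endothelial genes 15 were higher and 1 lower, with a median of 0.78. The adhesion gene Pecam1 rose by 1.27, from 40.6 ± 4.23 to 98.2 ± 4.91 CPM, and the transcription factor Erg by 1.5. Lyve1, of lymphatic vessels and of some tissue macrophages, was the most raised, at 0.244, 0.333 and 0.428 CPM and then 12.5, 9.95 and 11.2 CPM (5.04, SE 0.30, adjusted p = 1.02e-08). Prox1, which specifies the lymphatic fate, rose by 1.30, while Flt4, the receptor for lymphatic growth factor, did not pass (22.3 ± 5.64 and 27.7 ± 2.83 CPM, adjusted p = 0.174). Mural cell genes were higher in 9 of 12 cases: Cspg4, of pericytes, rose from 3.19 ± 0.582 to 68.5 ± 5.60 CPM (4.42), Rgs5 by 3.12, and the smooth muscle genes Acta2 and Myh11 by 4.62 and 5.01. Myocd, the activator of smooth muscle genes, was variable at E10.5 (0.873, 0.111 and 4.05 CPM) and not called (adjusted p = 0.533). With the outside-gene share as a covariate 8 endothelial genes were higher.

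Red cell transcripts switched. The embryonic globin Hbb-bh1, made in primitive red cells of the yolk sac, measured 1135, 1365 and 1152 CPM at E10.5 and 2.63, 1.70 and 1.03 CPM at E14.5 (-9.43, SE 0.46, adjusted p = 1.76e-09). Its embryonic companions fell less, Hba-x by 4.93 and Hbb-y by 2.81, and Hbb-y still stood at 241 ± 102 CPM. Of 4 adult globin genes 3 were higher, and the alpha copy Hba-a2 was not called (log2 fold change 0.081). The adult beta globin Hbb-bs rose from 1.99, 4.18 and 16.1 CPM to 1043, 521 and 595 CPM (6.58, SE 0.76, adjusted p = 3.87e-06). Counts of Hba-a1 per count of Hba-x were 0.336, 0.362 and 0.273 and then 24.9, 25.0 and 30.1, and those of Hbb-bt per count of Hbb-bh1 were 0.0140, 0.0109 and 0.0124 and then 196, 142 and 276. The adult copies Hba-a1 and Hba-a2, and likewise Hbb-bs and Hbb-bt, are nearly identical, so that the split between copies is uncertain, and the rise of Hba-a1 was lost with the outside-gene share as a covariate (adjusted p = 0.145).

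While 3 of the 4 adult globins rose, genes of the nucleated red cell precursor fell, 10 of 11, by a median of 2.08. The factors Gata1 and Klf1 fell by 2.41 and 2.08, the membrane protein Slc4a1 by 2.17 and the nuclear protein Hemgn by 4.07, from 12.4 ± 3.05 to 0.732 ± 0.191 CPM. Alas2, the first enzyme of haem synthesis in red cells, was not called (29.5 ± 4.80 and 35.4 ± 19.7 CPM, adjusted p = 0.416). E14.5 replicate 1 was the highest of its age for Alas2 and for the adult globins. All 12 globins together made up 0.348 ± 0.0306% of counts at E10.5 and 0.220 ± 0.0945% at E14.5 (two-sided exact permutation test, p = 0.2, where 0.1 is the smallest that 3 against 3 allows).

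Cells of the immune system left more transcripts at E14.5. Leukocyte genes were higher in 17 of 18 cases with a median of 1.38, and their summed level was 96.2 to 113 CPM at E10.5 and 334 to 373 CPM at E14.5. Csf1r, the receptor that macrophages need, rose from 14.1 ± 0.678 to 47.9 ± 2.44 CPM (1.76), the mannose receptor Mrc1 by 2.44, and F13a1, of resident macrophages, by 2.81. Of 10 mast cell genes 8 rose and 1 fell, and the granule genes began nearly at 0. Cpa3, the carboxypeptidase of mast cell granules, measured 0.0698, 0.0739 and 0.132 CPM and then 66.9, 48.6 and 60.5 CPM (9.24, SE 0.34, adjusted p = 1.91e-10). The chymase gene Cma1 had 2 counts at E10.5 and 33.0 ± 6.13 CPM at E14.5 (ratio 1424, interval 394 to 11767), and Hdc, the enzyme that makes histamine, rose by 6.49. Kit, the receptor of mast cells that melanocytes and other cells also carry, was not called (35.9 ± 5.77 and 32.9 ± 4.76 CPM). The protease genes of mast cells include near-identical copies, so that reads of Mcpt4 and Tpsb2 are not read further.

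Melanocyte genes were higher in 6 of 8 cases. Dct, a pigment enzyme, stood at 0.908, 0.0370 and 0.0987 CPM and then at 10.6, 8.54 and 8.43 CPM (4.71, SE 0.59, adjusted p = 8.23e-06), with E10.5 replicate 1 apart from its group. Pmel and the regulator Mitf rose by 3.01 and 1.62. Sox10, of neural crest, glia and melanocytes, fell from 31.2, 59.4 and 40.7 CPM to 12.8, 16.2 and 16.5 CPM (-1.53, SE 0.21, adjusted p = 1.67e-05). Of 13 Schwann cell genes 8 rose and 3 fell. Among those that rose were Pmp22, a myelin protein also of connective tissue, from 12.0 ± 0.747 to 108 ± 3.77 CPM (3.16), and S100b, with 3 counts at E10.5, to 4.23 ± 0.212 CPM (ratio 122, interval 41.4 to 593). Mbp, of the same myelin, was not called (adjusted p = 0.323).

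Neuronal genes fell in 13 of 22 cases and rose in 5. The steepest falls were in genes of neuronal birth in the cranial ganglia. Neurod4 had 11.8, 22.7 and 13.1 CPM at E10.5 and no count at E14.5 (at least 536-fold lower), Neurog1 was at 8.62, 16.3 and 12.0 CPM and had 2 counts at E14.5 (ratio 629, interval 174 to 5202), and Neurod1 fell by 7.61. Pou4f1, of sensory neurons, fell by 4.22, and the neuronal RNA-binding protein gene Elavl3 by 2.79, from 20.7 ± 9.98 to 2.94 ± 2.95 CPM. In each of these genes E10.5 replicate 2 was the highest of its age, and in Elavl3 and Pou4f1 E14.5 replicate 2 was the lowest and replicate 3 the highest of theirs. The summed list was at 708, 1311 and 828 CPM and then at 314, 247 and 537 CPM.

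Other neuronal genes rose. The neurotrophin receptors Ntrk2 and Ntrk3, which mesenchyme and glia also express, rose by 2.10 and 1.91, and Syt1, a vesicle protein of nerve endings, by 1.77. Nefh, a neurofilament of mature axons, rose from 0.265 ± 0.0938 to 1.65 ± 0.936 CPM (2.62). The calls of Elavl3 and Nefh did not pass with the outside-gene share as a covariate (adjusted p = 0.201 and 0.0984), and that of Elavl3 not with E10.5 replicate 3 alone (adjusted p = 0.0841). With that covariate 5 genes of the list were lower. Whether the amount of ganglion in a dissection moved these values was not tested.

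Genes that mark more posterior or distal tissue were mostly low. Of 11 Hox and distal arch genes only 5 were abundant enough to test. Hoxd8, of trunk and limb, had 0.0582 ± 0.0206 CPM at E10.5 and 16, 10.2 and 11.3 CPM at E14.5 (7.66, SE 0.50, adjusted p = 2.15e-08). Hand2, of the lower jaw at early stages, stood at 0.0589 ± 0.0226 and 4.50 ± 0.810 CPM (6.18). Hoxa2, of the second arch, was high in 1 library of each age, E10.5 replicate 2 (1.81 CPM) and E14.5 replicate 1 (2.79 CPM), and at most 0.309 CPM in the others. Six6, of eye and pituitary, had 4.43, 0.665 and 2.01 CPM at E10.5 and no count at E14.5 (at least 81.9-fold lower), and the pituitary gene Hesx1 fell from 1.54 ± 0.520 to 0.0794 ± 0.0379 CPM. Of 17 tested genes of brain, eye and olfactory tissue, 8 were lower and 5 higher. Their summed level was 149, 148 and 130 CPM at E10.5 and 124, 121 and 128 CPM at E14.5. Summed plasma protein genes, of liver or yolk sac, were at 1.59 to 8.42 CPM and 0.928 to 2.97 CPM.

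**Figure D3:**
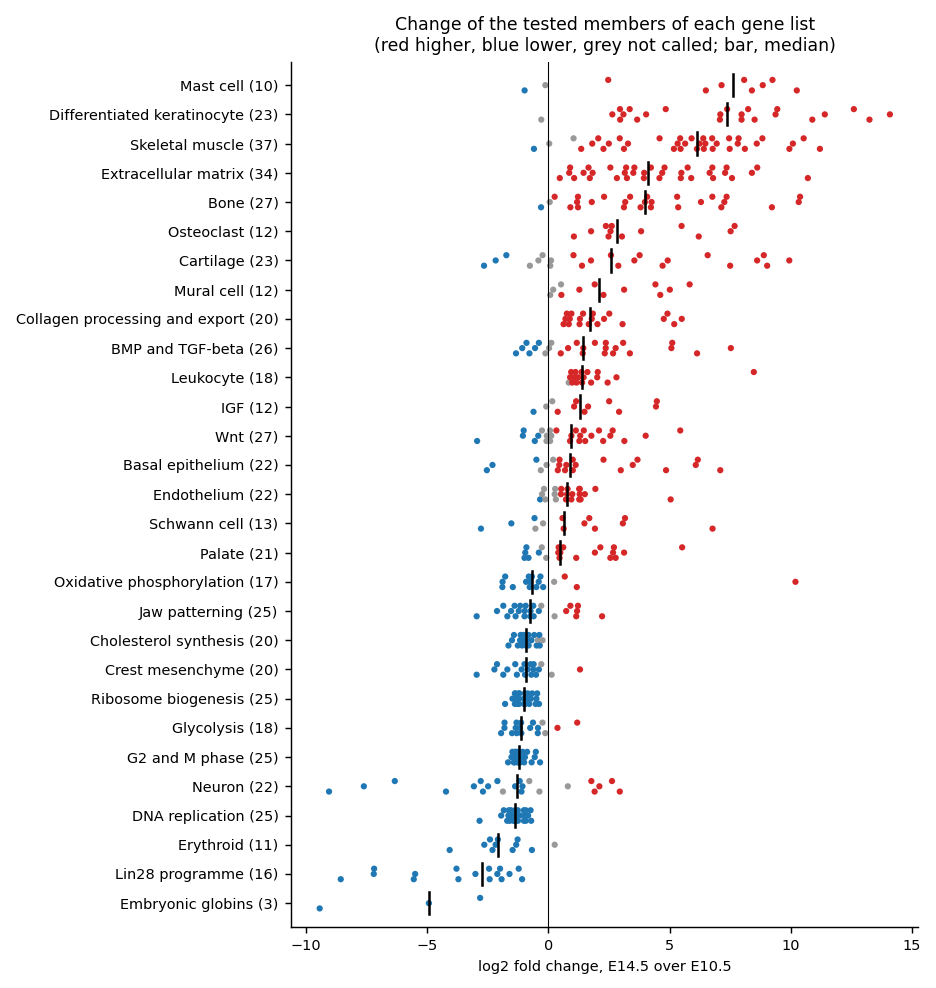
Log2 fold change, E14.5 over E10.5 (horizontal), of each tested member of the gene lists, with the number tested in brackets, called genes in red (higher) or blue (lower), genes not called in grey and a bar at the median. Medians run from -4.93 for the embryonic globins through -1.23 for the G2 and M phases to 7.37 for differentiated keratinocytes and 7.61 for mast cells, or 7.54 and 5.89 for the last pair with genes of 0 to 3 counts at an age set to their bound or ratio.

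The neural crest mesenchyme itself kept its identity genes at lower levels. Of 20 such genes 17 were lower and 1 higher, with a median of -0.91, and their summed level was 1999 to 2505 CPM at E10.5 and 1600 to 1635 CPM at E14.5, so that the labelled tissue was recognisable at both ages. The exception was Pdgfra, the growth factor receptor of facial mesenchyme and later of fibroblasts, at 171, 163 and 190.0 CPM and then 477, 412 and 406 CPM (1.31, SE 0.13, adjusted p = 7.90e-07). Dlx2, a homeobox gene that patterns the first arch, measured 78.4, 69.1 and 84.1 CPM and then 16.6, 18.1 and 18.6 CPM (-2.12, SE 0.13, adjusted p = 9.83e-09). Its linked gene Dlx1, which shares its regulatory elements, fell only by 0.62. Twist1, which keeps crest mesenchyme undifferentiated, fell by 0.96, the orphan receptors Nr2f1 and Nr2f2 by 1.30 and 1.10, and Tfap2a by 1.36. Snai2 stood at 38.6 ± 4.92 and 42.4 ± 2.52 CPM and was not called (adjusted p = 0.203). With the outside-gene share as a covariate 10 genes of the list were lower, and Twist1 did not pass (adjusted p = 0.0776).

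Among 25 genes that pattern the jaw, 17 fell and 6 rose. Among those that fell were the LIM factor Lhx8 (-1.39), the T-box genes Tbx2 (-1.35) and Tbx3 (-0.93), the sine oculis and eyes absent homologues Six4 (-1.54) and Eya1 (-1.22), and the aristaless-like homeobox gene Alx1 (-1.69). Among those that rose were Dlx5 and Dlx6, Pax9, Pitx1 and Gsc, the last from 2.39 ± 0.498 to 11.1 ± 0.616 CPM (2.22). Six2 and Alx4 were not called. The calls of Pax9 and Pitx1 were lost with the outside-gene share as a covariate (adjusted p = 0.123 and 0.384), and that of Pitx1 also with E10.5 replicate 3 alone (adjusted p = 0.0752).

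Among 21 regulators of the palatal shelves, 14 rose and 5 fell. Meox2, a homeobox gene of the palate mesenchyme, measured 1.29, 1.11 and 1.12 CPM and then 56.2, 51.9 and 53.7 CPM (5.52, SE 0.16, adjusted p = 4.45e-11). The zinc finger genes Osr2 and Osr1 rose by 3.12 and 2.7, Shox2, of the anterior palate, by 2.15, and Tgfb3, the signal by which the shelf epithelia fuse, from 8.16 ± 0.903 to 52.0 ± 2.15 CPM (2.67). Tbx22, the gene of X-linked cleft palate, stood at 7.53 ± 2.05 and 6.22 ± 0.946 CPM and was not called (adjusted p = 0.272). Among early crest and multipotency genes, where 14 of 21 were lower and 2 higher, Sall4 fell by 7.2, Mycn by 3.01, Sall1 by 2.79 and Id2 by 1.33, while Zeb2 rose by 1.65 and Myc was not called (38.8 ± 6.03 and 43.5 ± 1.32 CPM, adjusted p = 0.193). With the outside-gene share as a covariate 9 of these 21 were lower.

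The Lin28 programme fell as a whole, 16 of 16 tested genes, by a median of 2.73. Lin28a and Lin28b bind the precursors of let-7 microRNAs and block their maturation, and several of their companions are themselves let-7 targets. Lin28a measured 43.6, 58.6 and 67.6 CPM at E10.5 and 0.214, 0.0960 and 0.129 CPM at E14.5 (-8.56, SE 0.29, adjusted p = 1.39e-10). Lin28b went from 120.5, 142 and 129 CPM to 2.36, 3.45 and 2.58 CPM (-5.55, SE 0.20, adjusted p = 1.78e-10). Neither gene's libraries overlapped between the ages, and Lin28a was near 0 in all 3 of E14.5. Igdcc3, an immunoglobulin superfamily receptor, fell from 277 ± 39.9 to 1.90 ± 0.227 CPM (-7.18), and Trim71, a repressor of translation, from 64.2 ± 2.00 to 1.43 ± 0.203 CPM (-5.49).

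Other members of the programme fell by less. The chromatin protein genes Hmga2 and Hmga1 went from 691 ± 61.5 to 127 ± 8.54 CPM and from 691 ± 83.1 to 129 ± 11.5 CPM (-2.44 and -2.42). Of the ARID factors, Arid3b fell by 3.71 and Arid3a by 1.93. The 3 insulin-like growth factor 2 mRNA-binding proteins fell in the order Igf2bp1 (-2.10), Igf2bp3 (-1.60) and Igf2bp2 (-1.08), and the last was still at 146 ± 4.31 CPM.

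Noncoding genes that hold microRNA hairpins changed over the same course. Of 50 such tested genes with a hairpin on their own strand, 26 were higher, 6 lower and 18 not called, a list made after the data were examined. Noncoding genes at large leaned the same way: 235 of 604 long intergenic genes were higher and 110 lower, and 225 and 46 of 542 antisense genes. With the outside-gene share as a covariate 59 long intergenic genes were higher and 59 lower. Hosts that overlap, such as 3110039I08Rik and Gm28119, are counted apart. Host transcripts in poly-T libraries do not measure the mature microRNA. The mature sequences from RefSeq (GRCm38.p6) of the hosts described below are given with the seed, bases 2 to 8, in capitals, since the seed decides which transcripts a microRNA pairs with.
let-7c-5p, chr15:85706616-85706637, plus strand: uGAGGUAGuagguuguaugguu
let-7b-5p, chr15:85707325-85707346, plus strand: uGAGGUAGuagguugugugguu
miR-17-5p, chr14:115043684-115043706, plus strand: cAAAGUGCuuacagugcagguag
miR-20a-5p, chr14:115044183-115044205, plus strand: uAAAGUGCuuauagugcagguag
miR-18a-5p, chr14:115043867-115043889, plus strand: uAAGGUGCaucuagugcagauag
miR-19a-3p, chr14:115044048-115044070, plus strand: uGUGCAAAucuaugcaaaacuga
miR-92a-3p, chr14:115044476-115044496, plus strand: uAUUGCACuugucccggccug
miR-206-3p, chr1:20679055-20679076, plus strand: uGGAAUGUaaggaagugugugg
miR-133b-3p, chr1:20682834-20682855, plus strand: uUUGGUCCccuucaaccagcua
The 2 let-7 microRNAs share 1 seed, and miR-17-5p and miR-20a-5p share another, while miR-18a-5p differs from the latter within the seed. Lncppara, the gene (chr15:85653616-85707524) that holds let-7b and let-7c, had 1 count over E10.5 and 0.490, 0.480 and 0.490 CPM at E14.5 (ratio 41.9, 95% exact interval 7.19 to 1688, adjusted p = 0.000123), a low level throughout, and not called with the outside-gene share as a covariate (adjusted p = 0.270). Other let-7 hosts differed. 3110039I08Rik, which holds let-7a-2, rose from 13.6 ± 8.08 to 76.8 ± 5.94 CPM (2.49). Mir99ahg, which holds another copy of let-7c, stood at 7.07 ± 1.6 and 9.50 ± 1.19 CPM (0.43, adjusted p = 0.0239), with overlapping libraries and a call lost on leaving out replicate 1 or 3 of either age (adjusted p of 0.0505 to 0.101) and with the 6 libraries alone (adjusted p = 0.0542). 6720427I07Rik, with let-7a-1, let-7d and let-7f-1, and D630033A02Rik, with let-7i, were not called (adjusted p = 0.157 and 0.350).

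Mir17hg (chr14:115042879-115046727) holds the miR-17 cluster, which favours proliferation, and measured 41.7, 39.7 and 51.2 CPM at E10.5 and 13.7, 14.2 and 13 CPM at E14.5 (-1.70, SE 0.14, adjusted p = 1.73e-07). Every E14.5 library was below every E10.5 library. Gm28653 (chr1:20669882-20684298) holds miR-206 and miR-133b, microRNAs of muscle, and had 1 count over E10.5 and 10.3, 12.0 and 9.95 CPM at E14.5 (ratio 919.7, 95% exact interval 165 to 36361, adjusted p = 2.71e-08). Dnm3os (chr1:162217623-162225550), the host of the mesenchymal miR-199a and miR-214, rose from 30.2, 22.5 and 49.3 CPM to 154, 133 and 137 CPM (2.06, SE 0.26, adjusted p = 1.00e-05). Meg3 and Rian, imprinted hosts of many microRNAs on chromosome 12, rose by 3.84 and 2.60.

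Genes of cell division fell in both of their lists. The 25 genes of G2 and mitosis were all lower, with a median of -1.23, and so were all 25 of DNA replication, with a median of -1.37. Top2a, the topoisomerase that untangles replicated chromosomes, measured 1335, 1492 and 1195 CPM at E10.5 and 542, 629 and 547 CPM at E14.5 (-1.23, SE 0.12, adjusted p = 1.16e-06). Cdk1, the kinase that starts mitosis, fell from 295 ± 44.0 to 113 ± 11.5 CPM (-1.39) and its partner cyclin Ccnb1 from 399.6 ± 51.3 to 155 ± 13.2 CPM (-1.36). The sliding clamp Pcna fell by 1.65, the ribonucleotide reductase subunit Rrm2 by 1.94, the helicase loader Cdc6 by 1.58 and the helicase subunits Mcm2 to Mcm7 by 0.83 to 1.54. Mki67, the common marker of cycling cells, fell by only 0.56, from 816 ± 44.2 to 553 ± 29.4 CPM, and with library totals in place of the trimmed mean it did not pass (adjusted p = 0.0532). Fen1 shares 84.2% of its exon length with neighbouring genes and is not read.

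The promoters of Cdk1 and Top2a are shown because a repeated pair of motifs is common to their list. They are the 250 bases before each start site (RefSeq, GRCm38.p6, chr10:69352913-69353162 and chr11:99024190-99024439, both on the minus strand). Capitals mark CCAAT, which factor NF-Y binds, and TTTGAA, the core of the element through which cell cycle genes are repressed in resting cells, on either strand, so that CCAAT appears also as ATTGG and TTTGAA as TTCAAA.
Cdk1: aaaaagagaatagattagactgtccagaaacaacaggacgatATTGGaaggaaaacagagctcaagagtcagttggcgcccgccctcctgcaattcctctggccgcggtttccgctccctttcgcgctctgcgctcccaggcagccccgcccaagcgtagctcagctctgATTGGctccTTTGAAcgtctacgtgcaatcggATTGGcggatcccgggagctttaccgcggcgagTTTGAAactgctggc
Top2a: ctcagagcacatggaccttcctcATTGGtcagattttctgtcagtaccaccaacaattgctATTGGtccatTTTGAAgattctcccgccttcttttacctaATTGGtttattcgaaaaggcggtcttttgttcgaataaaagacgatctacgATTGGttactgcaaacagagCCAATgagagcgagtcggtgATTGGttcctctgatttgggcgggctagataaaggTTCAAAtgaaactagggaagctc
TTTGAA lies 71 and 15 bases before the start of Cdk1 and 179 and 23 before that of Top2a. Of 21 G2 and M phase genes with a promoter in the table, 15 (71.4%) held TTTGAA and 17 (81.0%) CCAAT, against 12.2% and 38% of all 12709 promoters. Of 21 replication genes, 3 (14.3%) held TTTGAA, 14 (66.7%) CCAAT, and 5 (23.8%) GGCGGGAA, a sequence that E2F factors bind and that 3.86% of all promoters held. No motif searched contains another, except that a CArG box can hold CCAAT or TATAAA.

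In a list of 17 tested genes of cell cycle exit, which holds inhibitors and the D cyclins, 11 rose and 3 fell. Cdkn1c, an inhibitor of cyclin-dependent kinases that is imprinted, measured 116, 122 and 103 CPM and then 300.2, 285 and 297 CPM (1.37, SE 0.10, adjusted p = 6.44e-08). Cdkn1a, the p53 target, rose by 1.51, Cdkn2c by 2.61, the retinoblastoma relative Rbl2 from 7.39 ± 0.430 to 29.7 ± 0.505 CPM (2.01) and the retinoblastoma gene Rb1 by 0.88. Of the D cyclins, which drive entry into the cycle, Ccnd1 fell by 0.68 and Ccnd2 by 0.49 while Ccnd3 rose by 0.41. The fall of Ccnd2 was lost with library totals (adjusted p = 0.231), and that of Ccnd1 with the outside-gene share as a covariate (adjusted p = 0.0760).

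Ribosome biogenesis genes fell in 25 of 25 cases by a median of 1.01. Npm1, the nucleolar chaperone, was among the most abundant, at 4218, 4974 and 3600.0 CPM and then 1128, 1374 and 1217 CPM (-1.78, SE 0.15, adjusted p = 2.97e-07). The methyltransferase Fbl fell by 1.48, its partners Nop56 and Nop58 by 1.37 and 1.38, and Polr1e, a subunit of RNA polymerase I, by 1.35. Tcof1, the gene of Treacher Collins syndrome, in which facial bones are underdeveloped, fell from 139.7 ± 5.46 to 77.6 ± 3.58 CPM (-0.85). The largest polymerase subunit genes, Polr1a and Polr1b, fell by 0.38 and 0.52, and both calls were lost with library totals (adjusted p = 0.617 and 0.0845). Ribosomal proteins themselves, 83 genes, made up 8.57 ± 1.17% of counts at E10.5 and 5.87 ± 0.389% at E14.5, and their libraries did not overlap (p = 0.1, the smallest an exact permutation test of 3 against 3 can give).

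Chromatin regulators fell in 11 of 19 cases and rose in 3. Transcripts of the Polycomb methyltransferases, whose mark keeps developmental genes silent, moved in opposite directions. Ezh2, its methyltransferase of dividing cells, fell from 236, 244 and 215 CPM to 84.9, 88.4 and 85.6 CPM (-1.43, SE 0.09, adjusted p = 1.17e-08), whereas Ezh1, its counterpart in resting cells, rose from 13.8 ± 2.33 to 26.6 ± 0.496 CPM (0.94). Counts of Ezh1 per count of Ezh2 were 0.0536, 0.0501 and 0.0766 and then 0.318, 0.295 and 0.311. The reader protein Cbx2 fell by 1.95. Of the enzymes that place new DNA methylation, Dnmt3b fell by 1.99 and Dnmt3a was not called (281 ± 12.7 and 310.5 ± 8.96 CPM, adjusted p = 0.113), which moved their count ratio, Dnmt3a over Dnmt3b, from 6.64, 6.43 and 5.33 to 26.0, 26.8 and 27.4. The high mobility group genes Hmgb1 and Hmgb2 fell by 1.53 and 1.93. Tet1 and Tet3, which remove methylation, were not called (adjusted p = 1.00 and 0.803), and Tet2 rose by 0.91, a call lost with the outside-gene share as a covariate (adjusted p = 0.0932).

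**Figure D4:**
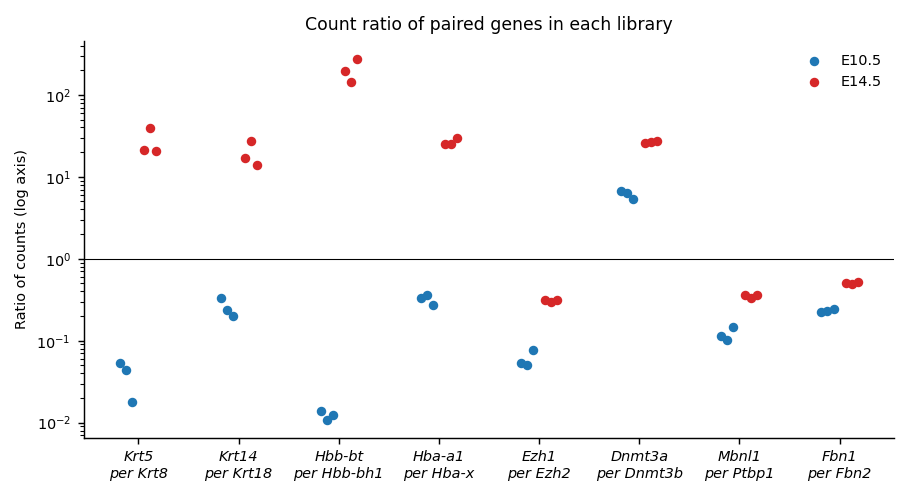
Count of 1 gene per count of its counterpart in each library (vertical, log axis, not corrected for gene length) at E10.5 (blue) and E14.5 (red) for 8 pairs, with a line at equal counts. The ratio of Krt5 to Krt8 crosses the line, from at most 0.0529 to at least 20.6, as do the keratin and globin pairs beside it, while that of Dnmt3a to Dnmt3b stays above the line and those of Ezh1, Mbnl1 and Fbn1 to their counterparts stay below it.

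Splicing regulators moved in both directions. Of 22 genes 9 were higher and 11 lower, beside 36.6% and 33.8% of all genes tested. Muscleblind genes, which promote adult splice forms, rose, Mbnl2 from 71.8 ± 10.8 to 163 ± 5.53 CPM (1.18) and Mbnl1 by 0.81, and Rbfox1, of muscle and neurons, by 3.07. The polypyrimidine tract proteins Ptbp2 and Ptbp1 fell by 1.64 and 0.70, Celf1 by 1.22 and the SR proteins Srsf1, Srsf3 and Srsf7 by 1.32, 1.29 and 1.39, while Celf2 rose by 1.76. Counts of Mbnl1 per count of Ptbp1 were 0.115, 0.102 and 0.149 and then 0.361, 0.331 and 0.357, though the rise of Mbnl1 alone did not pass with the outside-gene share as a covariate (adjusted p = 0.0792).

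Metabolic genes fell on balance. Of 18 glycolysis genes 14 were lower and 2 higher, with a median of -1.12. Eno1 fell from 2713, 3162 and 2506 CPM to 788, 840.2 and 762 CPM (-1.81, SE 0.13, adjusted p = 4.53e-08), pyruvate kinase Pkm by 1.80 and the lactate dehydrogenases Ldhb and Ldha by 1.95 and 1.35, while the phosphofructokinase Pfkp rose by 1.19. Slc2a1, the main glucose transporter, was not called (adjusted p = 0.0959). Of 17 genes of the mitochondrial respiratory chain and fat oxidation 13 were lower and 3 higher, and the most raised was Cox6a2, a muscle subunit of cytochrome oxidase with no count at E10.5 and 4.68 ± 0.359 CPM at E14.5 (at least 134-fold), a call lost with the outside-gene share as a covariate (adjusted p = 0.0649), under which 5 of the 17 were lower. Cytochrome c (Cycs) and Cox5a fell by 1.78 and 1.89. Cholesterol synthesis genes were lower in 18 of 20 cases with a median of -0.90: Idi1 fell by 1.64, Msmo1 by 1.5, Hmgcs1 from 354 ± 47.4 to 132 ± 8.87 CPM (-1.42) and Dhcr7, whose loss causes Smith-Lemli-Opitz syndrome, by 0.92. Of 10 fat cell precursor genes 7 rose and 2 fell. Pparg, the regulator of fat cells, rose from 0.177 ± 0.0678 to 3.07 ± 0.945 CPM (4.10) and Cebpa by 3.18, while Lpl was not called and Adipoq had 9 counts and 1.

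In the Wnt pathway 16 of 27 genes were higher and 5 lower. Ligands diverged: Wnt5a, of the mesenchyme, rose from 74.5 ± 22.7 to 181 ± 11.2 CPM (1.28) and Wnt11 by 2.56, while Wnt9b, of the early facial epithelium, fell from 30.5, 20.6 and 24.0 CPM to 2.60, 4.61 and 2.66 CPM (-2.94, SE 0.28, adjusted p = 6.03e-07). Secreted inhibitors rose, Wif1 from 4.09 ± 2.26 to 66.0 ± 12.9 CPM (4.01), Dkk2 by 3.13, Sfrp2 by 2.65 and Sfrp4 by 5.44, with Sfrp1 and Frzb not called. Of the target genes used as readouts, Axin2 and Lef1 fell by 1.05 and 1.02, Sp5 and Lgr5 rose by 1.31 and 2.09, and Nkd1 was not called (adjusted p = 0.560).

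In the hedgehog pathway 10 of 17 genes rose and 4 fell. Shh, the ligand of the epithelium, fell from 5.77 ± 0.753 to 3.28 ± 0.921 CPM (-0.82, adjusted p = 0.00633), a call lost with library totals (adjusted p = 0.0701) and with the outside-gene share as a covariate (adjusted p = 0.142). Ihh, the ligand of cartilage and bone, rose from 0.112 ± 0.103 to 3.12 ± 0.140 CPM (4.71). The target Gli1 rose by 1.15 and the coreceptor Boc by 2.08, while Gli3, mainly a repressor, fell by 0.63. With that covariate 5 of the 17 were higher, and Gli1 did not pass either (adjusted p = 0.113).

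Of 20 FGF genes 13 were higher and 7 lower. Fgf8, the signal of the early facial epithelium, measured 22.9, 19.6 and 28.9 CPM and then 0.0919, 0.0960 and 0 CPM (-8.57, SE 0.62, adjusted p = 5.84e-08). No other ligand fell as far, and Fgf17, of the same subfamily, fell by 2.22. Fgf18 and Fgf7, of bone and connective tissue mesenchyme, rose by 3.12 and 4.31. Receptors rose, Fgfr1 from 134 ± 13.7 to 283 ± 1.31 CPM (1.08) and Fgfr4, of muscle precursors, from 0.632 ± 0.175 to 24.3 ± 2.08 CPM (5.25). Target genes divided, with Dusp6, Etv4 and Etv5 lower (-1.05, -1.16 and -0.65) and Spry1 and Spry4 higher (1.12 and 0.91), the first not with the outside-gene share as a covariate (adjusted p = 0.0961).

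Of 26 BMP and TGF-beta genes, 17 rose and 6 fell. The ligands Gdf10, Bmp3, Bmp6 and Bmp2 rose by 6.13, 5.11, 3.36 and 2.78, and Bmp7 was not called (48.9 ± 5.09 and 49.9 ± 3.01 CPM, adjusted p = 0.818). Inhba, an activin subunit, rose from 1.61, 0.961 and 0.658 CPM to 32.5, 39.3 and 36.7 CPM (5.07, SE 0.25, adjusted p = 2.34e-09). All 3 TGF-beta ligands rose, Tgfb1 by 1.44, Tgfb2 by 2.37 and Tgfb3 by 2.67, and their receptors went apart, Tgfbr2 up by 2.33 and Tgfbr1 down by 1.08. The BMP target genes Id1, Id2 and Id3 fell by 0.90, 1.33 and 0.78 and Id4 rose by 1.17, and the call of Id1 was lost with the covariate (adjusted p = 0.0697).

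Of 16 retinoic acid genes, 7 fell and 5 rose, not far from the 33.8% lower and 36.6% higher among all genes tested. Both cellular binding proteins fell from high levels, Crabp2 from 474, 509 and 334 CPM to 61.5, 69.3 and 65.0 CPM (-2.75, SE 0.18, adjusted p = 2.42e-08) and Crabp1 from 421 ± 87.9 to 108 ± 9.80 CPM (-1.97). The enzymes differed in direction within their families: among those that make retinoic acid Aldh1a2 rose by 3.36 and Aldh1a3 was not called (44.9 ± 17.3 and 34.5 ± 4.11 CPM, adjusted p = 0.397), and among those that destroy it Cyp26b1 rose by 2.71 while Cyp26a1 and Cyp26c1 fell by 2.42 and 2.45. The receptor Rarb, itself a target, fell by 1.53.

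Insulin-like growth factor genes were higher in 9 of 12 cases. Igf1 rose from 188, 142 and 116 CPM to 451, 444 and 493 CPM (1.64, SE 0.15, adjusted p = 5.20e-07), and H19, the noncoding neighbour of Igf2, from 1306 ± 68.0 to 2728 ± 65.4 CPM (1.06). Reads assigned to Igf2 itself are uncertain, since 64.5% of its exon length is shared with overlapping genes. Of the binding proteins, Igfbp3 rose from 35.7 ± 1.35 to 270.1 ± 13.5 CPM (2.92) and Igfbp2 fell by 0.61. The receptors differed, with Igf2r, which clears Igf2, higher by 1.49 and Igf1r, which signals, not called (159 ± 16.8 and 150.2 ± 5.51 CPM, adjusted p = 0.434). Among 20 imprinted genes 13 were higher and 3 lower: Plagl1 rose from 105 ± 23.8 to 1016 ± 37.5 CPM (3.28), Zim1 by 3.08 and Dlk1 by 2.82, while Nnat fell from 879 ± 23.1 to 176 ± 5.29 CPM (-2.32), Peg10 by 1.06, and Mest and Ndn were not called. The fall of Igfbp2 was lost with library totals (adjusted p = 0.0674) and with the covariate (adjusted p = 0.104).

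Immediate early genes, which respond to signals and to handling of tissue, rose in 10 of 14 instances and fell in 3. Egr1 measured 3.46, 3.14 and 3.39 CPM and then 30.7, 31.7 and 31.7 CPM (3.23, SE 0.17, adjusted p = 2.93e-09), Fos rose by 2.87 and Egr3 by 5.96. Ier2, of the same class, fell from 79.9 ± 2.81 to 25.9 ± 2.39 CPM (-1.63), and Atf3 was not called (2.36 ± 0.429 and 2.72 ± 0.333 CPM). Time from dissection to lysis is not given in the sources used here, and its part in these values was not tested.

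The net comparison leaves out genes that moved and came back. A joint test found a difference among the 4 ages for 14995 genes, and 2456 of these were not called between E10.5 and E14.5. For 5670 of the 14995, the 95% interval of the net change lay within 2-fold. That number is larger than 2456, so it includes genes with a small net change that was called, not only genes that came back. Of the 5670, 24 had departed at least 4-fold at E11.5 or E12.5. Tbx22 stood at 7.53, 17, 46.2 and 6.22 CPM at E10.5, E11.5, E12.5 and E14.5, and Foxf1, of oral mesenchyme, at 9.27, 10.6, 47.9 and 8.78 CPM. Wnt3, of the facial epithelium, rose and then dipped, at 11.8, 30.8, 1.44 and 9.85 CPM. A trough at E11.5 was seen for Akap6, at 28.4, 3.45, 11.2 and 25.5 CPM, and for Inka2, at 9.71, 1.96, 4.32 and 9.50 CPM, whose libraries at E10.5 spread over 6.77 to 13.5 CPM.

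**Figure D5:**
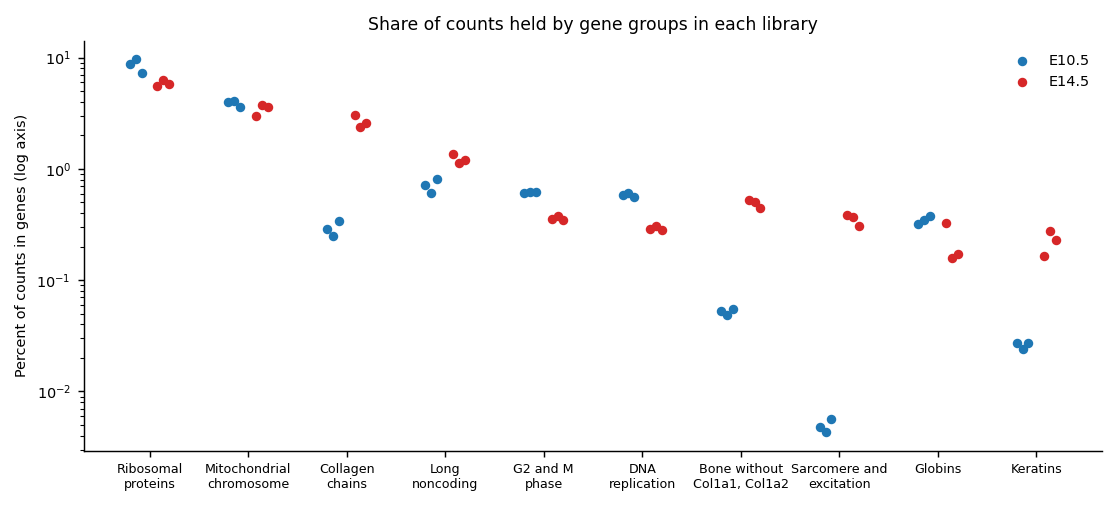
Percent of all counts in genes (vertical, log axis) held by 10 gene groups in each library of E10.5 (blue) and E14.5 (red). Collagen chains go from 0.252 to 0.343% up to 2.41 to 3.08%, sarcomere genes from at most 0.00563% to at least 0.307%, and the groups of cell division and ribosomal proteins move down, while mitochondrial transcripts and globins overlap between the ages.

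In terms of the whole transcript pool, 44 collagen genes held 0.294 ± 0.0459% of counts at E10.5 and 2.69 ± 0.351% at E14.5, 9.15 times as much. Sarcomere and excitation genes went from 0.00490 ± 0.000670% to 0.353 ± 0.0405%, 72.1 times as much, bone genes other than type I collagen from 0.0520 ± 0.00340% to 0.494 ± 0.0436%, and keratins from 0.0262 ± 0.00183% to 0.224 ± 0.0565%. The G2 and M phase genes went from 0.615 ± 0.0108% to 0.358 ± 0.0146% and those of replication from 0.582 ± 0.0265% to 0.293 ± 0.0103%. In each of these groups the 3 libraries of the ages did not overlap, which gives p = 0.1 in a two-sided exact permutation test, the smallest possible. Transcripts of the mitochondrial chromosome, at 3.91 ± 0.235% and 3.47 ± 0.397%, overlapped (p = 0.3, same exact permutation test).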

How the data were processed

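Read counts per gene were deposited by the authors as 1 table per library, with no normalization. STAR 2.7.3a, HTSeq 0.12.4 and FastQC are named with mouse build mm10, per the submitters' processing notes. The annotation release, the strandedness of counting and any filter were not given in the sources used here. Per the labels' protocols, polyadenylated RNA was captured with poly-T beads and made into libraries with a kit that does not mark strand, so that reads of overlapping antisense genes cannot be told apart. Of 860 listed or named genes, 12 share over 50% of their exon length with other genes. Those of them that were tested stay in the counts and medians of their lists. Rows that name no gene were left out: 14.3 to 16.7% of each table's sum at E10.5 and 17.1 to 17.3% at E14.5. Symbols and coordinates came from GENCODE M21 (GRCm38), which matched 53620 of 53801 identifiers.

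Counts of all 12 libraries were filtered (filterByExpr, minimum count 10) and fitted in edgeR 4.0.16 under R 4.3.3 with the quasi-likelihood test, trimmed mean scaling and 1 mean per age (8 residual degrees of freedom, common biological coefficient of variation 0.142). The contrast was E14.5 against E10.5, and p-values were Benjamini-Hochberg adjusted over 18365 genes with a threshold of 0.05. For a gene with no count at an age, the fold is a lower bound against a floor of 3 counts over that age. For 1 to 3 counts it is a ratio with a 95% exact interval. Both cover counting error only. Correlations and components used log2 CPM with a prior count of 2, scaled to library size, added to each count. Genes that came back were taken from those with a joint call and a fitted change whose 95% interval lay within 2-fold. The net change of such a gene may also have been called. On counts simulated with 200 of 18365 genes changed, 52.4%, 85.2% and 95.2% of those changed by 1.5-fold, 2-fold and 4-fold were recovered. In that simulation 5.70% of calls were false. Rises and falls were equally likely there, whereas 70.4% of genes were called in the data. The rates therefore do not describe the comparison made here, nor errors that come from its scaling.

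The genes named are up to 12 with the largest rise and fall, 10 with the largest gain and loss in CPM, up to 5 with the largest change per gene list, members of a list whose count is broken down, both genes of each pair, and 8 that came back. Other members are named as examples chosen after their values were seen, and some genes that the rule picks are not reported here. The comparison, the gene lists and the rule were chosen with earlier results of these data known. Promoters were matched by symbol in a RefSeq table for 12709 tested genes. Alternatives were upper quartile and DESeq2 size factors, library totals (added after seeing the data), no filter and a minimum count of 50, DESeq2 1.42.0, limma-voom (limma 3.58.1), a 2-fold threshold (glmTreat), the 6 libraries alone, the replicate number as a block, the share of reads outside annotated genes as a covariate, E10.5 replicate 3 alone, globin and mitochondrial genes left out, and each library left out in turn.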

Additional observations from a re-analysis of the deposited data

How the results depend on the processing

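Against a 2-fold threshold (glmTreat), 3007 of 18365 genes were higher and 1223 lower. By list, the higher counts then were 8 of 22 for basal epithelium, 4 of 22 for endothelium and 10 of 18 for leukocytes. They were 3 of 13 for Schwann cells, 2 of 10 for autonomic neurons and 6 of 17 for cell cycle exit. Palate had 8 of 21, Wnt 9 of 27, hedgehog 5 of 17, FGF 6 of 20 and imprinted genes 8 of 20. In the main test 4 of the 10 autonomic genes were higher and 4 lower. The lower counts were 7 of 20 for crest mesenchyme, 8 of 22 for neurons and 2 of 17 for brain, eye and olfactory genes. The G2 and M phases had 13 of 25, replication 16 of 25, jaw patterning 8 of 25 and early crest 8 of 21. Chromatin had 7 of 19, ribosome biogenesis 11 of 25 and splicing 6 of 22. Glycolysis had 7 of 18, oxidative phosphorylation 4 of 17 and cholesterol synthesis 4 of 20. With the share of reads outside annotated genes as a covariate, 3576 genes were higher and 3908 lower, 2627 and 1346 by at least 2-fold. Out of the same numbers tested, lower genes were 10 for crest mesenchyme, 5 for neurons and 2 for brain, eye and olfactory genes. They were 9 for early crest and 5 for oxidative phosphorylation. Higher genes were 8 for endothelium, 2 for autonomic neurons and 5 for hedgehog. That share moved with age, and the fit kept 1 mean per age. The covariate was therefore fitted on differences within an age, widest at E10.5 (2.67%, 1.92% and 4.88% in replicates 1, 2 and 3). How far its effect and that of age can be told apart rests largely on those 3 libraries and was not tested. Library totals gave 4114 lower genes, 1166 by at least 2-fold. A minimum count of 50 left 8 higher follicle and tooth genes, since fewer genes were tested, and E10.5 replicate 3 alone left 2 lower brain, eye and olfactory genes. An interval of the net change within 1.5-fold in place of 2-fold left 2313 genes with a joint call, whether or not their net change was called.

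Leaving out 1 library at a time gave 6235 to 7117 higher and 5671 to 6182 lower genes, and moved the lower brain, eye and olfactory genes from 8 to between 5 and 8, lowest without E14.5 replicate 1. Leaving aside that list and the Hox, plasma protein and pituitary lists, the count of each other list in its more frequent direction stayed within 1.5 times under these settings, the 6 libraries alone, DESeq2, its size factors, limma-voom, no filter and upper quartile scaling, while some counts in the less frequent direction moved further. Deviations of same-numbered libraries had correlations of -0.0276 to 0.00122, within the range of differently numbered ones (-0.103 to 0.102). With 3 libraries per age, this cannot settle whether the numbers pair the samples. With the replicate number as a block 6769 genes were higher and 6210 lower.

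Of 443 named genes with 8374 alternative values, 8026 kept direction and side of the threshold, 286 no longer passed, 51 newly passed and 11 changed sign. With library totals the log2 fold change was 0.17 for Armcx2, 0.16 for Cog2, 0.17 for Faf2, 0.16 for Fgfr1op2, 0.18 for Tnfaip1 and 0.024 for Atf4. Upper quartile scaling gave 0.0041 for Faf2 and 0.0063 for Tnfaip1. The covariate gave 1.72 for Zic1 and -2.05 for Myocd, and E10.5 replicate 3 alone 0.40 for Zic1. The cause was not tested. Depth limits the osteocalcin genes, Col10a1 and Enam, which were too low to test.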

Other observations

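Noncoding gene classes had more higher than lower calls. Of 15294 protein-coding genes tested, 5725 were higher and 5730 lower, of 604 long intergenic noncoding genes 235 and 110, of 542 antisense genes 225 and 46, and of 471 unclassified genes (the annotation class that awaits experimental evidence) 187 and 33. Among 697 processed pseudogenes 87 were higher and 171 lower. With the share of reads outside annotated genes as a covariate, 59 long intergenic genes were higher and 59 lower, 41 and 22 of the antisense and 14 and 26 of the unclassified. With E10.5 replicate 3 alone the counts were 175 and 85, 108 and 32, and 62 and 37 for these classes, and 59 and 78 for processed pseudogenes. That share was higher in each E14.5 library than in any E10.5 library, and its part in these counts was not tested.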
